A study of Mus musculus with 13 samples.

Results

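The 41 genes described here are 13 genes of SR and SR-like proteins (*Srsf1* to *Srsf7*, *Srsf9* to *Srsf12*, *Tra2a* and *Tra2b*), 11 of hnRNP proteins and 17 of the core spliceosome and its closest partners, the last including *Rbm39*, an RNA-binding protein related to U2AF. They were chosen by name and class, with earlier results of these data known. All 41 were found among the 55335 genes of the count table. Of these, 40 passed the filter on low counts together with 13086 genes in all. The exception was *Srsf2*.

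The spliceosome removes introns from pre-mRNA. Small nuclear ribonucleoproteins and their partner proteins recognise the splice sites and the branch point and carry out the reaction, SR proteins bind exonic sequences through RNA recognition motifs and recruit this machinery through domains rich in arginine and serine, and hnRNP proteins coat nascent transcripts and often oppose SR proteins at the same exons. Many of these genes regulate their own mRNA by splicing in exons with premature stop codons, which send the transcript to nonsense-mediated decay. The glucocorticoid receptor (GR), encoded by *Nr3c1*, is a ligand-activated transcription factor, and the study linked GR to splicing factors in male germ cells after treatment with dexamethasone, a synthetic GR ligand. The study lists qRT-PCR primers for 4 of the genes below (*Srsf7*, *Tra2b*, *Hnrnpa2b1* and *Prpf31*, called qRT-PCR targets here). Its qRT-PCR of splicing factors was made on testis of such mice, not on knockout oocytes. Its text names *Tra2b* and *Srsf7* as decreasing with dexamethasone dose.

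Single mouse embryos at E17.5 (embryonic day) gave their ovary pair, from which cells expressing the *Pou5f1*-GFP transgene, the germ cells, were sorted, and 1 3′ Tag-Seq library, which reads only the 3′ end of each mRNA, was made per embryo. There are 13 libraries in 4 groups. A constitutive cross gave 3 WT and 3 KO embryos, in the latter of which exon 3 of *Nr3c1* was deleted in every cell through a null allele made with a β-actin Cre line. Embryos of the conditional cross carried floxed *Nr3c1* alleles, and either lacked Cre (flox, n = 3) or carried the tamoxifen-inducible *Pou5f1*-CreERT2 allele (cKO, n = 4), which restricts deletion to cells expressing *Pou5f1*. Dams of both conditional groups received 125 μg / g tamoxifen at E10.5, so flox and cKO embryos shared the drug, whereas WT and KO embryos did not receive it. The comparisons KO against WT and cKO against flox ask whether splicing factor mRNAs depend on GR in the whole embryo or in the germ cells.

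Libraries held between 2048706 and 3674989 counts on genes, and 1 count was worth between 0.272 and 0.486 CPM (the count scaled to a library total of 1e6). Levels are CPM after TMM scaling, and since a 3′ tag library takes about one read position per transcript they were not divided by gene length. Of 15 fetal oocyte markers 14 had counts, with *Sycp3* at 0, and their summed level was 11429 to 18058 CPM. The study stained SYCP3 protein in germ cells of fetal ovaries at an earlier stage, and the 0 is not read as absence of its mRNA. The cause of the 0 was not tested. Markers of ovarian somatic cells (18 of 18 with counts) summed to 137 to 469 CPM, those of macrophages (10 of 10) to 12.3 to 103 CPM and those of erythroid cells (6 of 9) to 0.44 to 1323 CPM, the last value in flox 1. In sorted cells measured in bulk, fewer cells of a type and less RNA per cell cannot be told apart. *Nr3c1* itself was counted at 46.0, 29.1 and 58.7 CPM in WT, at 34.2, 26.3 and 73.4 CPM in KO, at 46.5, 46.7 and 104 CPM in flox and at 59.2, 48.4, 30.1 and 72.8 CPM in cKO. The groups overlapped. Exon 3 lies outside the 3′ end that is read, so the count by itself does not check the deletion. In single-cell RNA-seq of KO ovaries at an earlier stage, also read from the 3′ end, the study reported that *Nr3c1* transcript was depleted. Why the count was not lower in KO here was not tested.

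Splicing genes were among the well expressed genes of these oocytes. The mean level of the 40 tested members ranged from 9.61 to 1032 CPM with a median of 196 CPM, against a median of 24.9 CPM over all tested genes, and 22 of the 40 lay at or above the 90th percentile of genes by level. The members together took between 0.871% and 1.19% of a library's total over tested genes after TMM scaling. By median level SR genes were the highest class, at 240 CPM, with 10 of 12 genes at or above the 90th percentile. Then came hnRNP genes with 210 CPM and 6 of 11, and core genes with 124 CPM and 6 of 17. Spread between embryos of a group was also smaller than usual for this series. Median within-group coefficient of variation (CV) was 29.8% in the members and 60.1% in all tested genes, and counting error alone would give a median of 4.53% in the members. Genes were not matched on level in this contrast.

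At the top of the range stood *Hnrnpu*, which encodes a nuclear scaffold and RNA-binding protein, and *Rbm39*, both with a mean of 1032 CPM over the 13 libraries. *Sf3b1*, the branch point-binding subunit of the U2 particle, followed at 683 CPM and *Srsf5* at 594 CPM. The neighbours *Hnrnpu* and *Rbm39* did not differ beyond their spread, since *Hnrnpu* ran from 672 to 1569 CPM and *Rbm39* from 760 to 1507 CPM. At the bottom were *Hnrnpf* (9.61 CPM), *Prpf31* (10.9 CPM), *Hnrnpa1* (14.7 CPM) and *Srsf4* (19.4 CPM). Their within-group CVs of 86.0%, 71.6%, 92.0% and 79.1% were above those of the rest of the members, apart from *Sf3a2* at 86.7%. Next came *U2af1* at 62.3%, with a mean of 212 CPM.

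Some of these low values concern what the counting can see. That reads were counted over whole gene intervals is inferred from the gene lengths given with the counts. A read that lies in more than one gene may be credited to none. *Srsf2* (chromosome 11, 116849901 to 116853094, minus strand, mm10), one of the founding SR proteins, is covered over 100% of its interval by other genes, *Mettl23* at its 3′ end among them, and was listed at 0 in all 13 libraries. The cover of its 3′ end is on the opposite strand, and the strand setting of the counting is not given. Whether the overlap led to the 0 was not tested, and the 0 is not taken as a measure of its mRNA. The last 500 bases are also fully covered in *Srsf4* (by *Gm12992*), in *Prpf31* (by *Gm15927*) and in *Hnrnpu* (by *Cox20*). Each of these is on the opposite strand too, and *Hnrnpu* still had the joint highest level. Of the 41 intervals 22 overlap no other gene. Close pseudogene copies, at 95% identity or more over at least 300 bases of transcript, exist for 12 members and are most numerous for *Hnrnpa1* (9), *Hnrnpf* (6) and *Tra2b* (4), with 3 each for *Srsf3* and *U2af1*. In the last 300 bases of transcript, copies of at least 100 bases lay in 10 other genes for *Hnrnpf*, 7 of them pseudogenes. For *Hnrnpa1* they lay in 0 other genes. Reads that match several copies may not be counted, so the level of *Hnrnpf* is uncertain. Besides the overlapping genes of *Srsf2*, *Srsf4* and *Prpf31*, such copies also lay in 3 other genes for *U2af1* and 2 for *Hnrnpk*. *Hnrnpc*, *Hnrnpd*, *Hnrnph1* and *Hnrnpr* had 1 each. Their part in the levels of these genes was not tested. Whether the copies of *Hnrnpa1*, found only by the search of the whole transcript, changed its level was not tested.

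No member passed the test in either deletion model. In its own fit the study also reported no differentially expressed genes in female germ cells for either deletion. In the quasi-likelihood test of edgeR, adjusted over all tested genes by Benjamini and Hochberg, 0 of 40 members passed an adjusted p of 0.05 in KO against WT, as did 0 of 13086 genes (0%), and in cKO against flox the counts were again 0 of 40 and 0 of 13086 (0%). At an unadjusted p under 0.05 the count was 4 of 40 members in KO against WT (10%), beside 5.82% of all genes, and 1 of 40 in cKO against flox (2.5%), beside 3.19%. By DESeq2 and by limma voom 0 members passed as well, with 5 and 6 members under an unadjusted 0.05 in KO against WT, beside 5.86% and 5.47% of all genes with a p, and 2 and 1 in cKO against flox, beside 3.47% and 4.07%. Replicates are labelled as biological, 1 embryo each.

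**Figure D1:**
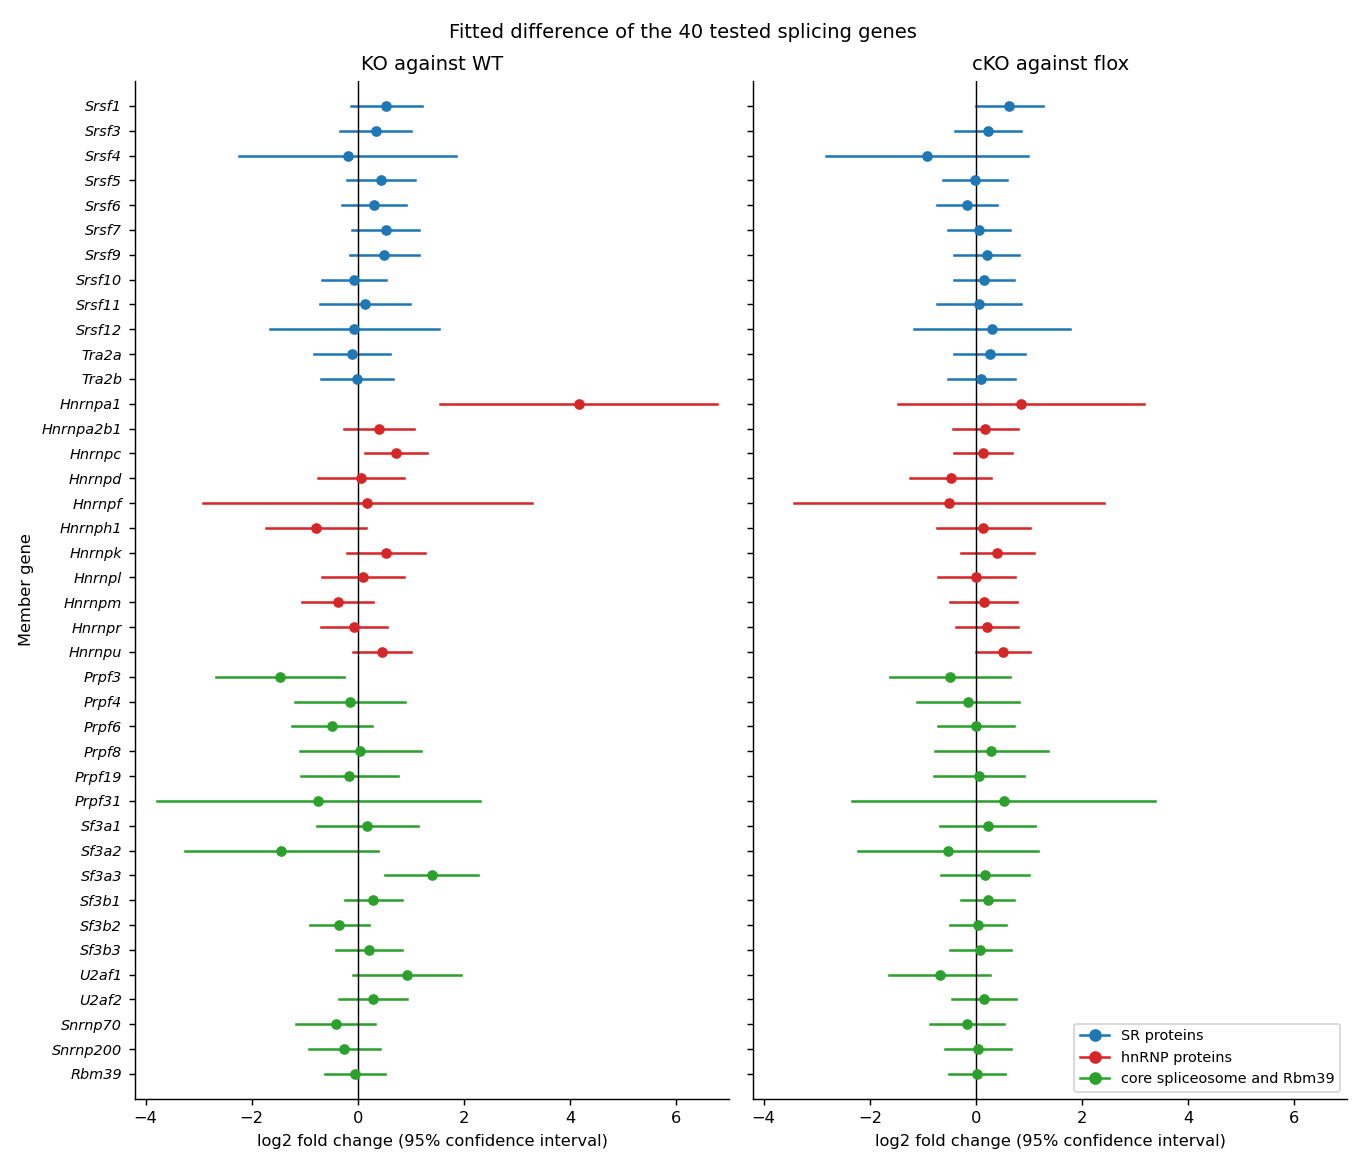
Fitted log2 fold change (x axis) of each of the 40 tested members (y axis) in KO against WT (left) and cKO against flox (right), with points for the estimate, lines for its 95% confidence interval and colours for the class. Most intervals cross 0. In KO against WT those of *Hnrnpa1*, *Hnrnpc* and *Sf3a3* lie above 0 and that of *Prpf3* below it. None of these genes has an adjusted p under 0.84669 in edgeR's test. In cKO against flox the intervals of *Srsf1* (from 0.0021) and *Hnrnpu* (from 0.0075) lie just above 0, each with an adjusted p of 0.99985.

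The intervals bound what was missed. In KO against WT the 95% confidence interval of the log2 fold change stayed within 1 of 0, for 14 of 40 members (35%), beside 11.4% of all tested genes. For cKO against flox it did so in 24 of 40 (60%), beside 15%. The median standard error was 0.35 in the members and 0.79 in all genes for KO against WT, and 0.33 and 0.74 for cKO against flox, all on the log2 scale. The narrowest were *Sf3b1* and *Hnrnpu*, each with a standard error of 0.26 in KO against WT. The widest were *Hnrnpf* and *Prpf31*, with standard errors between 1.47 and 1.5, for which no moderate change could have been seen in these libraries.

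None of the SR genes passed the test in KO against WT, and the fitted values of most lay above 0. The median log2 fold change over the 12 tested SR genes was 0.22, beside -0.03 for all genes, 7 of the 12 lay above 0, and the range ran from -0.19 to 0.54. *Srsf1*, which encodes the SR protein first purified as a splicing factor, was measured at 185, 217 and 195 CPM in WT and at 281, 333 and 253 CPM in KO. All 3 KO embryos were above all 3 WT embryos. The log2 fold change was 0.54 (SE 0.32, adjusted p = 0.90 in edgeR's quasi-likelihood test), and the exact permutation p was 0.1, the smallest that 3 against 3 allows.

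*Srsf9*, another SR protein with a short arginine-serine domain, showed 156, 143 and 215 CPM in WT and 240, 221 and 265 CPM in KO, again without overlap (log2 fold change 0.50, SE 0.32, adjusted p = 0.92). For *Srsf7*, a zinc knuckle SR protein that also promotes mRNA export and was one of the study's qRT-PCR targets, WT values were 346, 285 and 315 CPM and KO values 320, 475 and 569 CPM. KO 1 lay within the WT range and the other two above it, and the log2 fold change was 0.53 (SE 0.31, adjusted p = 0.88). *Srsf5*, the most abundant SR mRNA, gave 611, 306 and 452 CPM in WT against 504, 777 and 574 CPM in KO, which overlap (log2 fold change 0.44, SE 0.31).

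*Tra2b*, which encodes a splicing activator that binds GAA-rich exonic enhancers, stood at 197, 290 and 199 CPM in WT and 189, 217 and 274 CPM in KO. Means were 229 ± 52.7 and 227 ± 43.1 CPM (SD, n = 3 each) and the log2 fold change was -0.01 (SE 0.33), the closest to 0 of the 40 members. Its paralogue *Tra2a* had 165, 200 and 168 CPM in WT and 201, 213 and 79.6 CPM in KO, so that KO 3 was the lowest of the 6 and the other KO embryos the highest. *Srsf4*, one of the larger SR proteins, ranged from 11.7 to 28.2 CPM in WT and from 4.38 to 29.6 CPM in KO, with wide overlap (log2 fold change -0.19, SE 0.99). The remaining tested SR genes, *Srsf3*, *Srsf6*, *Srsf10*, *Srsf11* and *Srsf12*, had log2 fold changes between -0.07 and 0.34.

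**Figure D2:**
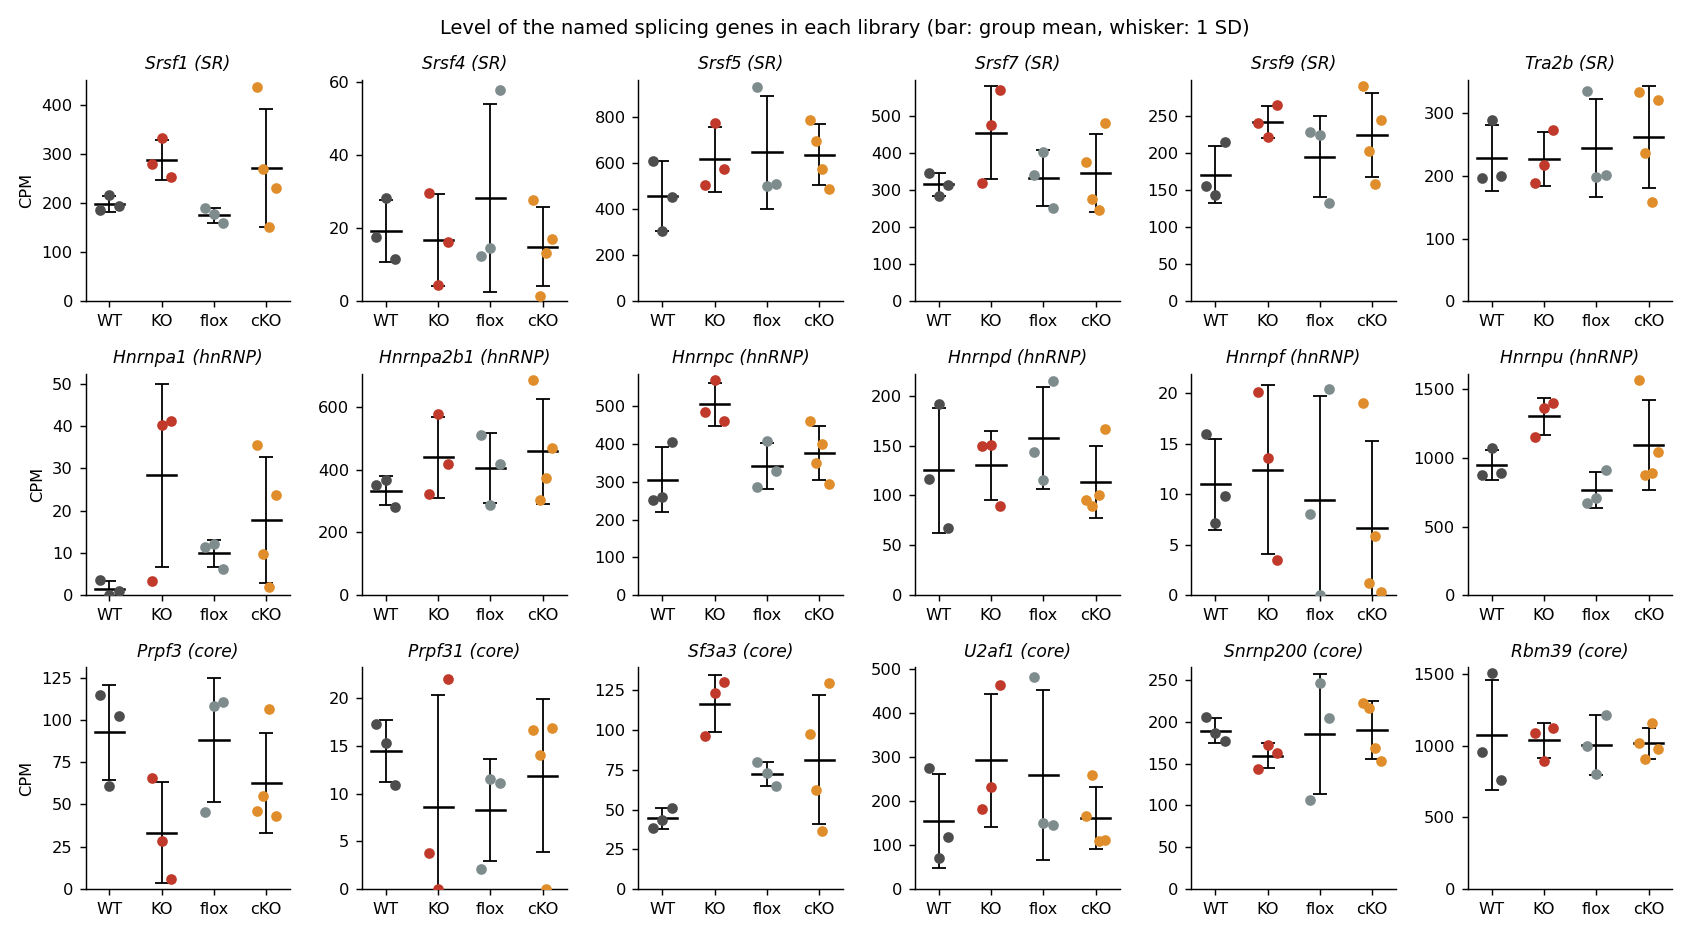
Level in CPM (y axis, from 0) of 18 members in each of the 13 libraries, grouped as WT, KO, flox and cKO on the x axis, with a point per embryo, a bar for the group mean and whiskers of 1 SD. KO points lie above all WT points for *Srsf1*, *Srsf9*, *Hnrnpc*, *Hnrnpu* and *Sf3a3* and below them for *Snrnp200*, and in no panel are flox and cKO points separate.

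hnRNP genes held 2 of the 4 members under an unadjusted p of 0.05. Their median log2 fold change in KO against WT was 0.18 and 8 of 11 lay above 0, but this median rests on a few embryos: it was -0.04 without KO 1 and 0.42 without WT 1. *Hnrnpc*, which encodes a core component of hnRNP particles that binds uridine tracts, was at 252, 260 and 406 CPM in WT and 484, 570 and 463 CPM in KO. The groups did not overlap, KO being higher, and the log2 fold change was 0.72 (SE 0.28, unadjusted p = 0.0177, adjusted p = 0.85 in edgeR's test). *Hnrnpu* did not overlap either, with 876, 1072 and 891 CPM in WT and 1151, 1364 and 1399 CPM in KO (log2 fold change 0.46, SE 0.26, adjusted p = 0.88).

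The largest fitted difference of any member was that of *Hnrnpa1*, a repressor of exon inclusion that is usually among the most abundant hnRNP mRNAs. It had few counts: 8, 0 and 4 in WT, equal to 3.54, 0 and 1.09 CPM, and 9, 83 and 94 in KO, equal to 3.421, 40.4 and 41.3 CPM. KO 2 and KO 3 were far above the WT embryos while KO 1 lay just under WT 1, so the groups overlapped. The log2 fold change was 4.16 with a 95% confidence interval of 1.55 to 6.77 (SE 1.26, unadjusted p = 0.00588, adjusted p = 0.85), and it ranged from 3.62 to 5.45 as single libraries were left out. The flox controls, at 11.4, 12.0 and 6.30 CPM, were also above WT, with a log2 difference of 2.65. *Hnrnpa1* lies on chromosome 15 and, as above, has 9 pseudogene copies, to which 6 counts were credited over all libraries. In its last 300 bases 0 copies in other genes were found.

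*Hnrnpa2b1*, a close relative of *Hnrnpa1* and a qRT-PCR target, showed 351, 367 and 281 CPM in WT and 321, 578 and 416 CPM in KO, with overlap (log2 fold change 0.40, SE 0.32). *Hnrnpd*, the AU-rich element binding protein, ran from 67.7 to 192 CPM in WT and from 89.7 to 151 CPM in KO (0.06, SE 0.39). *Hnrnph1*, *Hnrnpm* and *Hnrnpr* had log2 fold changes of -0.79, -0.38 and -0.08, and *Hnrnpk* and *Hnrnpl* of 0.53 and 0.10, none with an unadjusted p under 0.05. *Hnrnpf* was at 15.9, 7.17 and 9.79 CPM in WT and 20.1, 13.6 and 3.52 CPM in KO, a range in which neither group stood out.

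Core spliceosome genes had, in KO against WT, a median log2 fold change of -0.14 and 7 of 17 above 0, beside 47.9% of all genes. This median ran from -0.26 without WT 3 to 0.03 without WT 2. *Sf3a3*, a subunit of the SF3a complex of the U2 particle, was the member with the lowest unadjusted p. It was measured at 38.5, 43.5 and 51.1 CPM in WT and at 96.2, 123 and 130 CPM in KO, without overlap, and the flox controls, at 64.5 to 79.9 CPM, were also all above WT. Its log2 fold change was 1.39 (95% confidence interval 0.51 to 2.27, SE 0.43, unadjusted p = 0.0038, adjusted p = 0.85 in edgeR's test) and stayed between 1.31 and 1.52 as each library was left out. Of the other SF3a subunits, *Sf3a1* had a log2 fold change of 0.18 (SE 0.46) and *Sf3a2* of -1.44 (SE 0.88).

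*Prpf3*, a U4/U6 particle protein, was at 115, 61.2 and 102 CPM in WT and 65.8, 28.2 and 6.16 CPM in KO. KO 1 lay above WT 2, so the groups overlapped, and the log2 fold change was -1.47 (SE 0.59, unadjusted p = 0.0215, adjusted p = 0.85). It was -2.43 without KO 1 and -0.97 without KO 3. *Snrnp200*, the helicase that unwinds U4 from U6, showed 205, 186 and 177 CPM in WT and 143, 173 and 162 CPM in KO without overlap, a log2 fold change of only -0.25 (SE 0.32). *U2af1*, which recognises the 3′ splice site, was at 273, 69.8 and 118 CPM in WT and 181, 232 and 464 CPM in KO (0.93, SE 0.49, adjusted p = 0.86), and its value was 0.43 without KO 3 and 1.65 without WT 1.

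*Prpf31*, a U4/U6 protein and qRT-PCR target whose 3′ end is overlapped, was at 17.3, 15.3 and 10.9 CPM in WT and 3.80, 0 and 21.99 CPM in KO, which overlap (log2 fold change -0.75, SE 1.47). *Rbm39* was at 958, 1507 and 760 CPM in WT and 1092, 895 and 1124 CPM in KO (log2 fold change -0.05, SE 0.27). The remaining core genes, from *Prpf4* to *Snrnp70*, had log2 fold changes between -0.49 (*Prpf6*) and 0.30 (*Sf3b1*), *Sf3a2* apart.

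Counting separations without a model, the libraries of KO and WT did not overlap for 6 of 40 members (15%), beside 9.46% of all tested genes. *Srsf1*, *Srsf9*, *Hnrnpc*, *Hnrnpu* and *Sf3a3* were higher in KO (3.79% of all genes) and *Snrnp200* was lower (5.67% of all genes). In cKO against flox the count was 0 of 40, beside 4.97%. Between the control groups, flox and WT, both with intact GR, it was 4 of 40 (10%, beside 8.29%): *Srsf6*, *Hnrnpa1*, *Sf3a3* and *Sf3b3*, all higher in flox.

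Class sums were then compared by embryo. SR genes summed to 3097, 2542 and 2830 CPM in WT and 3367, 3657 and 3217 CPM in KO, and hnRNP genes to 2513, 2875 and 2724 CPM in WT and 3283, 3622 and 3335 CPM in KO. All KO sums were above all WT sums for both classes, whereas core genes, at 3156 to 4279 CPM in WT and 3869 to 3932 CPM in KO, overlapped. *Hnrnpu* alone made up 946 ± 109 CPM of the hnRNP sum in WT and 1304 ± 134 CPM in KO (SD, n = 3 each). Other measures also separated the same groups: ovarian somatic markers summed to 218 to 230 CPM in WT and 137 to 191 CPM in KO, and 13841 to 14721 genes had counts in WT against 12946 to 13544 in KO. Their part in the class sums was not tested.

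**Figure D3:**
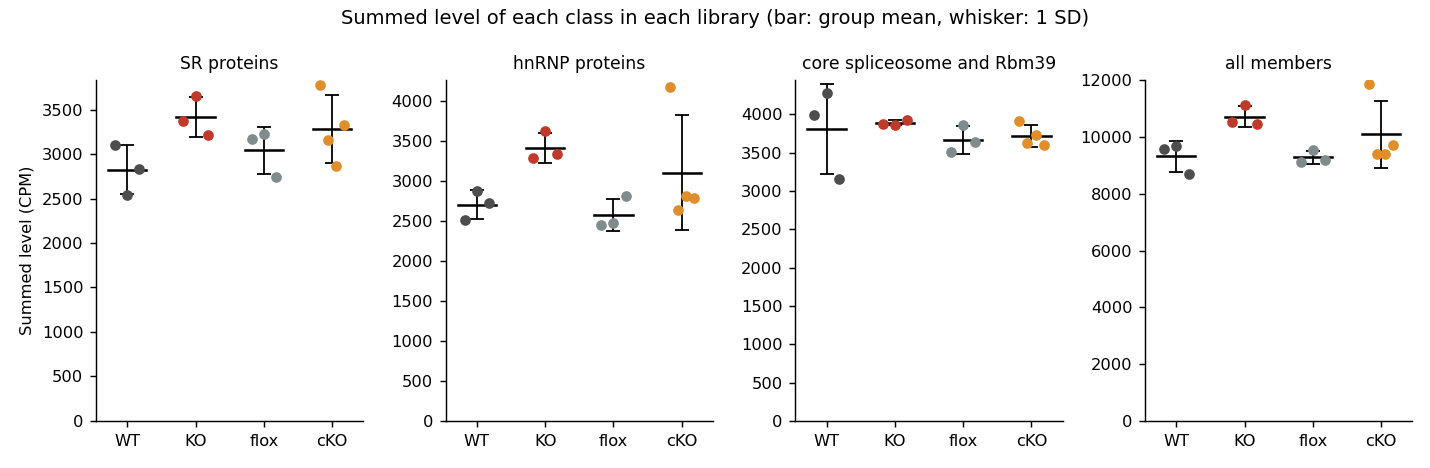
Summed level in CPM (y axis, from 0) of the SR genes, the hnRNP genes, the core genes with *Rbm39* and all members in each library, by group on the x axis, with a bar for the group mean and whiskers of 1 SD. KO sums lie above WT sums for SR and hnRNP genes, and cKO 1, at 4178 CPM of hnRNP genes, stands above the other cKO embryos.

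In the conditional model most fitted differences were close to 0. The median log2 fold change in cKO against flox was 0.13 for SR genes, 0.15 for hnRNP genes and 0.04 for core genes, beside -0.01 for all genes, and 29 of 40 members lay above 0 (72.5%, beside 49.3% of all genes). *Hnrnpu* was the only member under an unadjusted p of 0.05. It was at 672, 707 and 914 CPM in flox and at 1569, 873, 893 and 1040 CPM in cKO, so that flox 3 lay above 2 of the cKO embryos. Its log2 fold change was 0.52 (SE 0.25, unadjusted p = 0.0492, adjusted p = 0.99985 in edgeR's test) and 0.31 without cKO 1.

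cKO 1 was also the highest of the 7 conditional libraries for *Srsf1*, with 190, 178 and 160 CPM in flox and 437, 270, 151 and 231 CPM in cKO. The log2 fold change of *Srsf1* was 0.63 (SE 0.30, unadjusted p = 0.0521) and 0.32 without cKO 1. hnRNP genes summed to 2448, 2476 and 2808 CPM in flox, and to 4178, 2634, 2817 and 2788 CPM in cKO. *Hnrnpa1*, at 11.4, 12.0 and 6.30 CPM in flox and 35.7, 9.76, 1.84 and 23.8 CPM in cKO, overlapped widely (log2 fold change 0.84, SE 1.12).

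Several genes that separated in the constitutive model overlapped here. *Sf3a3* was at 79.9, 72.9 and 64.5 CPM in flox and 97.7, 62.5, 36.4 and 129 CPM in cKO, with cKO embryos both above and below the controls (log2 fold change 0.17, SE 0.40). *Hnrnpc* was at 288, 409 and 330 CPM in flox and 460, 349, 401 and 295 CPM in cKO (0.14, SE 0.26). *Srsf9* stood at 229, 224 and 133 CPM in flox and 291, 203, 158 and 245 CPM in cKO (0.20, SE 0.30), and *Snrnp200* at 106, 246 and 205 CPM in flox and 222, 217, 168 and 153 CPM in cKO (0.03, SE 0.30).

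The qRT-PCR targets overlapped likewise. *Srsf7* had 341, 403 and 253 CPM in flox and 376, 277, 247 and 480 CPM in cKO (log2 fold change 0.05, SE 0.29), and *Tra2b* 335, 198 and 201 CPM in flox and 334, 236, 159 and 321 CPM in cKO (0.10, SE 0.31). *Hnrnpa2b1* had 509, 288 and 417 CPM in flox and 686, 304, 373 and 468 CPM in cKO (0.18, SE 0.30), and *Prpf31* 2.11, 11.6 and 11.2 CPM in flox and 16.6, 14.1, 0 and 16.9 CPM in cKO (0.52, SE 1.38). Flox and cKO embryos overlapped for all 4 genes.

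Among the lowest fitted values were *Srsf4*, *U2af1* and *Hnrnpd*. *U2af1* was at 481, 150 and 144 CPM in flox and 165, 258, 109 and 110 CPM in cKO, where flox 1 exceeded all others (log2 fold change -0.69, SE 0.46), and the value turned to 0.13 without flox 1. That library also had the highest sum of erythroid markers, 1323 CPM against 0.44 to 380 CPM in the others, and the part of this in the value was not tested. *Hnrnpd* was at 143, 115 and 215 CPM in flox and 95.9, 89.8, 101 and 167 CPM in cKO (-0.48, SE 0.37), with cKO 4 inside the flox range. For *Srsf4* the flox value of 57.7 CPM in flox 3 stood against 12.3 and 14.7 CPM in the other two and 1.56 to 27.7 CPM in cKO (-0.92, SE 0.92), and the value was 0.15 without flox 3. *Prpf3*, with 45.6, 108 and 111 CPM in flox and 46.1, 55.1, 106 and 43.1 CPM in cKO, had a log2 fold change of -0.49 (SE 0.54).

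The models share no library, so their estimates can be set side by side. Of the 40 members, 17 lay above 0 in both comparisons, 6 below 0 in both, 5 were higher in KO and lower in cKO, and 12 were lower in KO and higher in cKO. The same sign was thus seen in 57.5% of members, beside 52.2% of all tested genes. Across the 40 genes Pearson's r was 0.43 and Spearman's rho 0.33, and r was 0.26 without *Hnrnpa1*, whereas over all 13086 tested genes r was 0.0058 and rho 0.04. Genes measured in the same libraries are not independent replicates, and the values are given as a description.

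**Figure D4:**
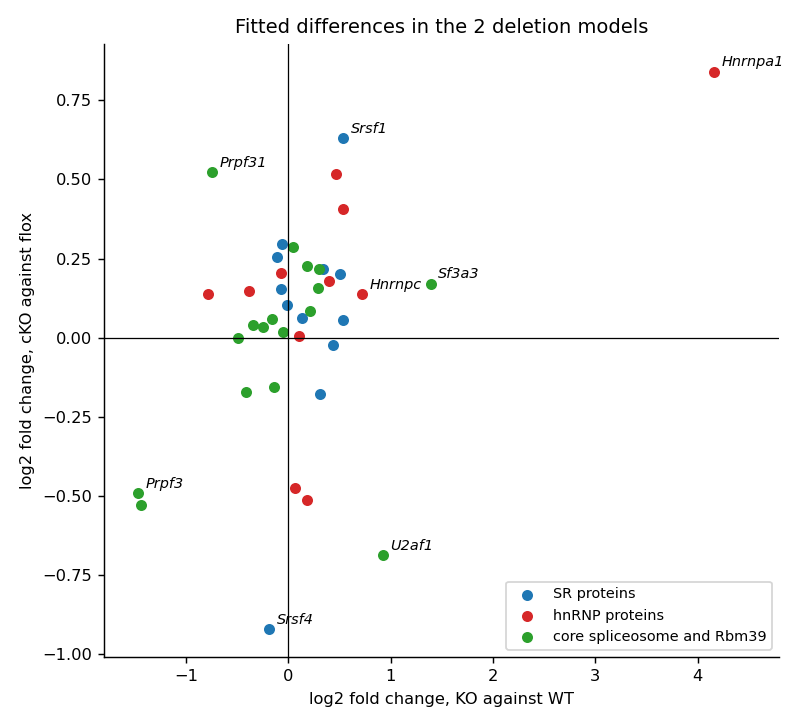
Fitted log2 fold change of the 40 tested members in KO against WT (x axis) and in cKO against flox (y axis, on a different scale), coloured by class, with names for the members farthest from 0. *Hnrnpa1* lies alone at 4.16 and 0.84, *Prpf3* is below 0 in both models and *U2af1* has opposite signs.

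When both models were weighted equally in one contrast, 0 of 40 members passed the adjusted p of 0.05 (0% of all genes), and 6 were under an unadjusted 0.05 (15%, beside 5.34% of all genes): *Srsf1* (average log2 fold change 0.58, SE 0.22), *Hnrnpa1* (2.50, SE 0.84), *Hnrnpc* (0.43, SE 0.19), *Hnrnpu* (0.49, SE 0.18), *Sf3a3* (0.78, SE 0.29) and *Prpf3* (-0.98, SE 0.40). For *Srsf1* and *Hnrnpu* the estimates of the models differed by -0.09 (SE 0.45) and -0.05 (SE 0.36). The interval of the average stayed within 1 of 0 for 31 of 40 members (77.5%, beside 28.2%). A test of the difference between the models also passed for 0 of 40 members (0% of all genes), with *Sf3a3* (difference 1.22, SE 0.58) and *U2af1* (1.61, SE 0.68) under an unadjusted 0.05 (5%, beside 4.39%).

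Control groups of the crosses, which differ in tamoxifen and in the floxed alleles, served as a background for such values. In flox against WT 0 of 40 members passed, beside 1 gene in all (0.00764%), and 0 of 40 were under an unadjusted 0.05, beside 3.06%. Even so, fitted differences reached 2.65 for *Hnrnpa1*, 0.75 for *U2af1*, 0.70 for *Sf3a3* and -0.80 for *Prpf31* on the log2 scale.

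Other genes of the same process were examined as lists. Of 20 further SR-related genes and SR protein kinases, all tested, 1 lay above and 2 below 0 with an unadjusted p under 0.05 in KO against WT (15%, beside 5.82% of all genes) and 0 in cKO against flox (beside 3.19%), and 0 passed the adjusted threshold. *Tnpo3*, the importin of SR proteins, had the lowest p of these in KO, at 14.4 ± 2.28 CPM against 55.5 ± 14.2 CPM in WT (log2 fold change -1.94, SE 0.69, adjusted p = 0.85). In cKO it was *Srrm2*, a large scaffold protein of nuclear speckles, at 1174 ± 379 CPM (n = 4) against 1533 ± 531 CPM in flox (-0.39, SE 0.28). Of 18 tested further hnRNP genes 1 was under 0.05 in KO (5.56%), *Hnrnpul2*, with a log2 fold change of -4.15 (SE 1.53) from 17.48 ± 19.0 CPM in WT to 0.907 ± 1.21 CPM in KO, and 0 in cKO, where *Pcbp1* came first (0.49, SE 0.28).

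Of 58 further spliceosome genes tested, 3 were above and 2 below 0 with an unadjusted p under 0.05 in KO (8.62%, beside 5.82% of all genes), and 0 in cKO (beside 3.19%). First in KO was *Sf1*, the branch point-binding protein, at 158 ± 48.4 CPM against 78.6 ± 13.1 CPM in WT (log2 fold change 1.00, SE 0.36, adjusted p = 0.85), and first in cKO was *Cdc5l* (0.50, SE 0.27). Among 24 other regulators of splicing, *Tardbp*, the RNA-binding protein TDP-43, averaged 154 ± 33.4 CPM in KO, against 80.7 ± 28.4 CPM in WT (0.93, SE 0.37), and *Khdrbs3*, which encodes a STAR-family splicing regulator, at 17.8 ± 5.75 CPM in cKO and 43.6 ± 9.02 CPM in flox (-1.29, SE 0.63). These were the only genes of that list under 0.05, 1 in each comparison (4.17%), and 0 passed the adjusted threshold in edgeR's test.

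Features of the genes themselves were tabulated next. Transcripts annotated as targets of nonsense-mediated decay in GENCODE M21 exist for 11 of 13 SR genes (84.6%), 7 of 11 hnRNP genes (63.6%) and 7 of 17 core genes (41.2%), against 20.9% of protein-coding genes and 32.6% of those with a total of at least 1000 counts. A 3′ tag does not separate such transcripts from productive ones that share a 3′ end, so the levels above sum over both.

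GR binds DNA as a dimer at a palindrome of AGAACA hexamers, searched here as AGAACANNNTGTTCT, and a single AGAACA on either strand was searched as well. RefSeq promoters (GRCm38.p6, 250 bases before to 50 after a start) were found for 40 members, 57 promoters in all, and the full element was in 0 of 57, against 0.00913% of 32851 promoters. One or more AGAACA hexamers were in 3 of 57 (5.26%), against 19% of all promoters. The members' promoters had a median GC content of 61%, against 52.7% of all. These windows show each match in its strand of the gene, with the hexamer in capitals, and a match is a description of letters, not of a bound site.
Hnrnpd, chr5:99979142-99979165, minus strand: agcgctcctTGTTCTcgatggtac
Srsf6, chr2:162931268-162931291, plus strand: ctgggcacaAGAACAgtttattag
Tra2a, chr6:49264277-49264300, minus strand: tacctaaagAGAACAaaaccaaaa
Tra2a, chr6:49264255-49264278, minus strand: aaaaactcaAGAACAaaaccccac
Positions from the start, with minus for bases before it, are -218, -231, -239 and -217 in the order shown, all before the start of the gene. The genes behind them, *Hnrnpd*, *Srsf6* and *Tra2a*, had log2 fold changes of 0.06, 0.31 and -0.11 in KO against WT and of -0.48, -0.18 and 0.26 in cKO against flox, none with an unadjusted p under 0.05.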

How the data were processed

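Poly(A) RNA of GFP-positive germ cells was measured in 13 libraries (WT 3, KO 3, flox 3, cKO 4), grouped by the deposited sample labels. The authors trimmed and aligned the reads to mm10 with STAR 2.6.0 and made raw read counts per gene with featureCounts 1.6.3, versions per the submitters' processing notes, and the deposited counts are not normalized. Annotation and strand setting are not given in the sources used here. The gene lengths in the table equal the whole gene interval, and intervals match GENCODE M21, which named 54587 of 55335 genes. Deposited tables of the authors' own comparisons (log2 fold change, mean log2 expression, t statistic, p-value) were not used.

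Low counts were filtered with filterByExpr (at least 10 counts in enough libraries and 15 in total). Counts were scaled by TMM and tested with edgeR 4.0.16 (R 4.3.3) by a quasi-likelihood F test, in which all 13 libraries shared 1 fit and each group had its own mean, with Benjamini-Hochberg adjustment over 13086 genes and a threshold of 0.05. The common biological coefficient of variation was 0.841. Standard errors and 95% intervals came from that fit and depend on 3 or 4 embryos per group. Reads without molecular identifiers are not independent molecules, and counting error (3 counts as the floor) covers counting only. Exact permutation tests were two-sided on mean log2 CPM (prior count 2), with smallest possible p of 0.1 (KO, WT) and 0.0286 (cKO, flox). The functions were tested on simulated data. Pseudogene copies were searched with blastn 2.17.0 and motifs in RefSeq promoters.

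The members, the lists of other splicing genes and the rule for named genes were chosen with earlier results of these data known. Named members are the qRT-PCR targets, the 2 with the lowest unadjusted p per class and comparison, the highest and lowest by level per class, those that failed the filter, and those whose libraries did not overlap. *Nr3c1* and the gene of lowest p in each other list were added. *Tra2a*, *Srsf6*, *Sf3a1*, *Sf3a2* and others outside this rule were named beside them after their values were seen. Alternatives were RLE and upper-quartile scaling, other filters, DESeq2 1.42.0, limma voom 3.58.1, a fit of only the groups compared, a replicate block and leaving out each library.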

Additional observations from a re-analysis of the deposited data

Results flagged for a closer look

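In groups of 4 embryos, a value whose gap to its nearest neighbour took more of the group's range than Dixon's 95% critical value allows was singled out. Of 43 such sets of values, all from the 4 cKO embryos, 3 met this. Chance alone flags about 1 in 20 of independent sets, and sets that share embryos are not independent. *Hnrnpd* was at 166.68 CPM in cKO 4, with the nearest cKO embryo at 101 CPM. *Prpf31* was at 0 CPM in cKO 3, with the nearest at 14.1 CPM. The hnRNP genes summed to 4177.9 CPM in cKO 1, with the nearest at 2817 CPM.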

How the results depend on the processing

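Members passing the adjusted threshold numbered 0 in all 5 comparisons under every alternative run, and the lowest adjusted p of a member was 0.134 (*Hnrnpa1*, KO against WT, DESeq2). The count of members under an unadjusted 0.05 ranged from 3 to 7 in KO against WT, where 3.48% to 6.78% of all genes were under it, and from 0 to 3 in cKO against flox, where 2.52% to 4.84% were. *Sf3a3* was under it in KO against WT in 13 of 13 fits without a library and 8 of 8 other fits. *Hnrnpa1* was under it in 13 of 13 and in the 6 of 8 other fits that held it, since it failed the filter when only KO and WT were fitted and when 10 counts were required in every library. *Hnrnpc* and *Prpf3* were under it in 10 of 13 and 8 of 8 each. *Hnrnpu* in cKO against flox was under it in 5 of 13 and 4 of 8. The 13 fits include those that left out a library of the other cross. For *Hnrnpc* it was lost without WT 1, WT 2 or KO 2, and for *Prpf3* without WT 1, KO 2 or KO 3. All of these libraries belong to the groups compared. Among fits without a flox or cKO library, *Hnrnpu* kept it without flox 3, cKO 2 or cKO 3 only. Over all genes, calls with no filter beyond 1 count numbered 15 (KO against WT), 11 (cKO against flox), 17 (average), 8 (difference) and 15 (flox against WT). By DESeq2 they numbered 11, 5, 12, 4 and 2, and with at least 10 counts in every library 1 for the average and 0 for flox against WT. Leaving out single libraries gave 0 to 2 in KO against WT (2 without WT 3), 0 to 1 for the average (1 without flox 1) and 1 to 4 in flox against WT (4 without WT 3). The hnRNP median in KO against WT ran from -0.0422 to 0.42.

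Same-numbered samples correlated between -0.02 and 0.06. Between flox and cKO this was above the highest value of other numbers for number 1 (0.064 against 0.017) and number 2 (0.040 against 0.018). It was below it for number 3 (0.001 against 0.024) and for every number between WT and KO. Such values cannot decide whether replicate numbers pair the embryos. With the replicate block 0 members were called, the all-gene counts under an unadjusted 0.05 fell from 761 to 553 and from 418 to 357, and the hnRNP median in KO against WT was 0.42. The sign turned under the block for 8 of 40 members in cKO against flox and 1 of 40 in KO against WT. Of the members named by the rule these were *Srsf5* (0.12), *Srsf7* (-0.14), *Tra2b* (-0.0200) and *Sf3a3* (-0.17) in cKO against flox and *Tra2b* (0.00822) in KO against WT.

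Other sign changes among the members named by the rule were these. In KO against WT *Tra2b* was 0.00235 by RLE, 0.0213 without filter, 0.00479 by DESeq2 and 0.00945 by voom, and voom gave -0.0205 for *Hnrnpf* and 0.0560 for *Rbm39*. In cKO against flox voom gave 0.00485 for *Srsf5* and -0.32 for *Prpf31*, and upper-quartile scaling gave -0.000764 for *Snrnp200* and -0.00970 for *Rbm39*. Without single libraries the log2 fold change in KO against WT ran from -0.87 to 0.28 for *Srsf4*, -0.16 to 0.20 for *Tra2b*, -0.23 to 0.51 for *Hnrnpd*, -0.35 to 0.63 for *Hnrnpf* and -0.23 to 0.28 for *Rbm39*. In cKO against flox it ran from -1.40 to 0.15 for *Srsf4*, -0.17 to 0.34 for *Srsf5*, -0.14 to 0.22 for *Srsf7*, -0.00578 to 0.34 for *Srsf9*, -0.0283 to 0.40 for *Tra2b*, -0.0653 to 0.38 for *Hnrnpa2b1*, -1.92 to 0.71 for *Hnrnpf*, -0.14 to 0.42 for *Sf3a3*, -1.01 to 0.13 for *U2af1*, -0.24 to 0.29 for *Snrnp200* and -0.12 to 0.19 for *Rbm39*. The causes were not tested. Members under about 25 CPM have intervals too wide to show a moderate change.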
